A study of Homo sapiens with 4 samples.

Results

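The epidermal growth factor (EGF) family was examined in the RNA-seq libraries as 9 genes chosen by symbol, of the 60725 genes in the deposited count table. They were 3 receptors (EGFR, ERBB2 and ERBB3), 5 ligands (AREG, EREG, HBEGF, TGFA and NRG1) and 1 intracellular inhibitor of the receptors (ERRFI1). The cells were hTERT-RPE1 SunTag cells, a telomerase-immortalized human retinal pigment epithelial line carrying the SunTag reporter system. Control cells, titled scramble in the labels, received 10 nM of Silencer Select Negative Control No. 2 siRNA. TOP2B knockdown cells received 10 nM of the Dharmacon ON-TARGETplus SMARTpool against TOP2B. Either siRNA was given again after 48 h, and RNA was taken 72 h after this second transfection, on day 5. Each group held 2 libraries, which the study's methods describe as independent biological replicates. The groups differed in the siRNA reagent as well as in TOP2B, so the effect of the reagent and that of TOP2B loss cannot be told apart here, and a single cell line was used.

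EGF family ligands are made as membrane-bound precursors that proteases cut from the cell surface, and the freed domain with its EGF fold binds the outer part of a receptor. Binding lets receptors pair and phosphorylate each other, and the pairs then recruit adaptors that feed the RAS-ERK and PI3K routes. AREG, EREG, HBEGF and TGFA act through EGFR, whereas NRG1 binds ERBB3 and ERBB4. ERBB2 has no known ligand and serves as the favoured partner, and ERBB3 is nearly devoid of kinase activity. Epithelial cells, including those of the retinal pigment epithelium, use this system to proliferate and to close wounds.

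A short word in the 3′ untranslated region (3′ UTR), GCAACC, had been tied to higher counts in an earlier analysis of these libraries, so it was looked up in the family. The canonical transcripts (GENCODE v44, GRCh38) of 4 of the 9 genes held it, namely EGFR with 2 copies, EREG with 2 and ERRFI1 and NRG1 with 1 each. Among tested genes it was 3 of the 8 members, since EREG was not tested, against 23.4% of the 12517 tested genes with a 3′ UTR. The 3′ UTRs of EGFR (6011 bases), EREG (3941 bases) and NRG1 (9644 bases) were longer than the median of 1357 bases over those genes, and that of ERRFI1 had 1483 bases. The sites of EGFR, EREG and ERRFI1 are printed to show the word in its surroundings, from 5′ to 3′ on the strand of the gene, with the word in capitals and 10 bases on either side. They lie at chr7:55209182-55209207 and chr7:55210842-55210867 on the plus strand (EGFR), chr4:74386859-74386884 and chr4:74387760-74387785 on the plus strand (EREG) and chr1:8012528-8012553 on the minus strand (ERRFI1).
EGFR site 1: attctaatggGCAACCagggttgaaa
EGFR site 2: cctccctaaaGCAACCaagtagcctt
EREG site 1: tcggctcactGCAACCtcacctcccg
EREG site 2: gagaaccaaaGCAACCacaaatgcat
ERRFI1 site 1: aggttacttgGCAACCatattgtcac
AREG, HBEGF, TGFA, ERBB2 and ERBB3 held no copy.

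The counts summed to between 20310259 and 23887013 per library, so that 1 CPM (counts scaled to library size by the TMM method) rested on 20.2 to 23.9 reads. TOP2B itself had 154.9 and 143.5 CPM in the control libraries and 15.3 and 13.3 CPM in the knockdown libraries, 9.58% of the control level. Of 8 markers of pigment epithelium, 5 were below 2 CPM in every library, with RPE65 and TYR at 0 reads throughout, RLBP1 at no more than 1 read, BEST1 at 0.614 to 0.992 CPM and PMEL at 0.307 to 1.46 CPM. The transcription factor genes MITF, PAX6 and OTX2 had between 11.2 and 70.1 CPM. KRT8, KRT18 and VIM, which this line is known to express, had between 266 and 1347 CPM. They stood in a list of 6 genes with CDH2 (247.5 to 347.7 CPM), COL1A1 (4.65 to 7.41 CPM) and FN1, the gene of fibronectin. Of the 6, 1 was called, FN1, which was higher (log2 fold change 1.13, edgeR's quasi-likelihood test, adjusted p = 0.0103). The uncalled genes had log2 fold changes of -0.35 (KRT8), -0.39 (KRT18), -0.03 (VIM), 0.23 (CDH2) and 0.35 (COL1A1). Of 16 markers of blood, endothelial, keratinocyte and neural cells, 14 were below 2 CPM in every library. Only 7 of the 16 had enough reads to be tested, and 0 of these 7 were called. Of all genes tested, 6.66% were called higher and 4.18% lower. CD3E, KRT5 and TP63 were at 0 in all libraries. The summed level of the 16 was 15.4 to 17.6 CPM in control and 12.5 to 16.4 CPM in knockdown libraries, mostly from the neural gene SNAP25.

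Levels of different genes were compared per kb of annotated exon. In control cells EGFR, the receptor of most of the ligands, was the highest of the family at 25.7 ± 2.91 CPM per kb (SD, n = 2). HBEGF (heparin-binding EGF-like growth factor) followed at 17.9 ± 0.0036 and the inhibitor ERRFI1, also known as MIG6, at 17.7 ± 0.47 CPM per kb. ERBB2 had 6.92 ± 0.89, TGFA (transforming growth factor alpha) 3.74 ± 0.038, NRG1 (neuregulin 1) 2.02 ± 0.071 and AREG (amphiregulin) 1.27 ± 0.10 CPM per kb. ERBB3 stood far below at 0.060 ± 0.016 CPM per kb, and EREG (epiregulin) had no reads. HBEGF and ERRFI1 overlapped in the control libraries and their order there is not resolved. With the longest transcript as the length they changed places. Each other gene in this order lay above the next in both control libraries, and also in both knockdown libraries. In the knockdown libraries ERRFI1 (20.55 and 22.70 CPM per kb) lay above HBEGF (20.15 and 20.52), by a narrow margin. In these libraries the transcripts of the receptors were thus mainly those of EGFR and ERBB2, and HBEGF was the most abundant ligand transcript of the 5.

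**Figure D1:**
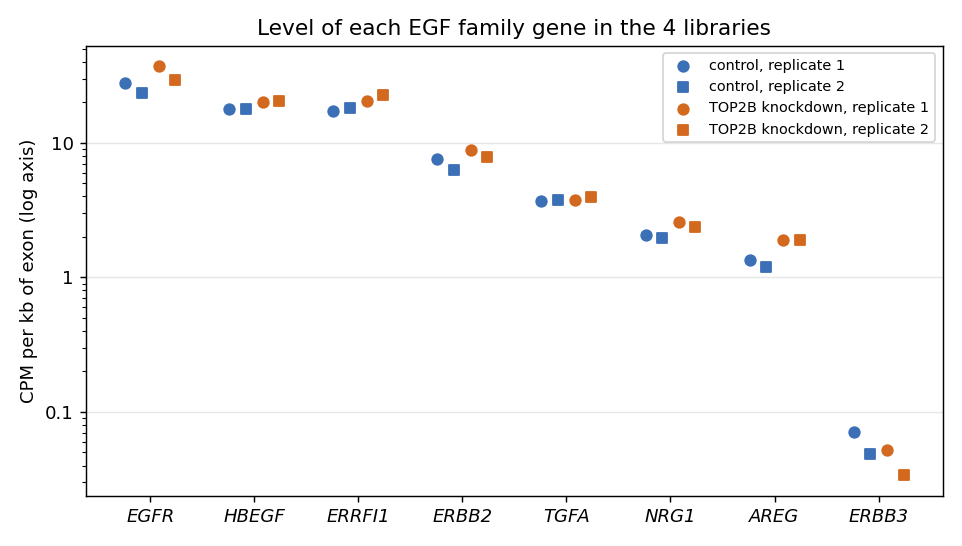
Level of 8 family genes in CPM per kb of exon (log axis), with 1 point per library, control in blue and TOP2B knockdown in orange, replicate 1 as circles and replicate 2 as squares. EGFR is highest and ERBB3 lowest in each library, and EREG, with 0 reads in all 4 libraries, is left out because 0 has no place on a log axis.

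TOP2B knockdown was compared with control to ask whether the family's transcripts changed. Of the 9 genes, 8 had enough reads to be tested. With condition as the only term, 0 were called at an adjusted p below 0.05, in either direction (edgeR's quasi-likelihood test). Over all 15356 genes tested, 6.66% were called higher and 4.18% lower in that fit. The calls depended on the model. With the replicate number as a block, 6 of the 8 were called higher, along with 3440 of all 15356 genes tested. That fit and its limits are given at the end, and the values below are from the fit without the block. The log2 fold change was above 0 for 7 of the 8 genes, ERBB3 being the exception, against 49.8% of all genes tested. The median was 0.28 for the 8 genes and -0.0029 for all genes tested. At an unadjusted p below 0.05, 3 of the 8 passed, all with a positive log2 fold change (AREG, NRG1 and ERRFI1), while 14.5% of all genes passed with a positive value. With the Wald test of DESeq2 0 members were called, and 1, EGFR, had an unadjusted p below 0.05. In 6 of the 8 genes both knockdown libraries lay above both control libraries, an arrangement that 27.7% of all tested genes showed. These were EGFR, ERBB2, AREG, HBEGF, NRG1 and ERRFI1. The genes were chosen as a family and with earlier results of these libraries known, so these counts describe them and are not a test of the family. From bulk RNA, a change in the share of cells with a transcript and a change in transcript per cell cannot be told apart.

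**Figure D2:**
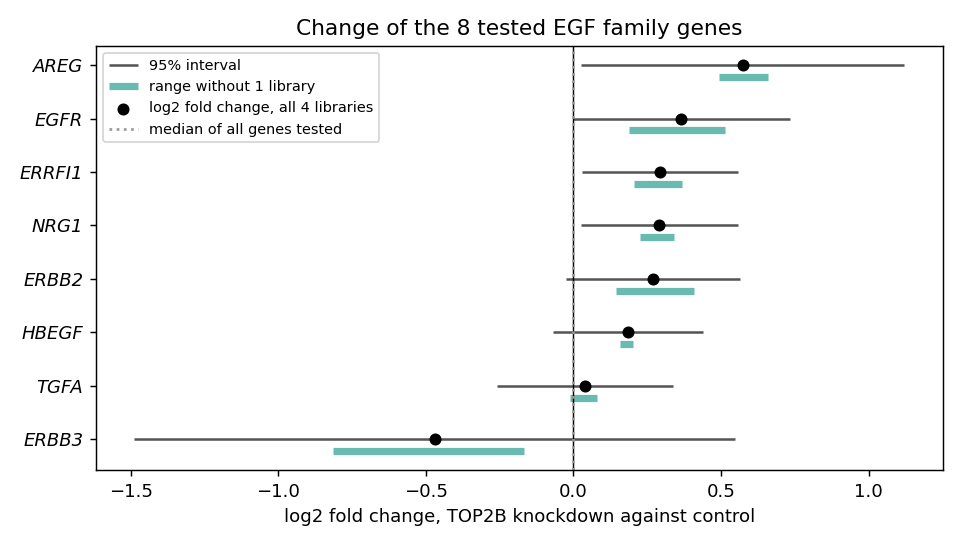
Log2 fold change (knockdown over control) of the 8 tested genes (black points), with the 95% interval of the fit (grey lines) and the range over the 4 fits that each left out 1 library (green bars). All points but that of ERBB3 are above 0, and the intervals of AREG, NRG1 and ERRFI1 exclude 0 before adjustment over all genes.

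Among the receptors, EGFR (ENSG00000146648, chromosome 7 from 55019017 to 55211628, plus strand) had 441.8 and 376.1 CPM in the control libraries and 589.6 and 464.4 CPM in the knockdown libraries. The groups did not overlap, but the lower knockdown library was close to the upper control library, and replicate 1 was the higher in either group. On the log2 scale the knockdown libraries were higher by 0.37 ± 0.16 (standard error), and the 95% interval from -0.0011 to 0.73 spans 0.999-fold to 1.66-fold (adjusted p = 0.191). The estimate depended on single libraries of either group. It was 0.19 with knockdown replicate 1 left out and 0.51 with knockdown replicate 2 left out. Without control replicate 1 it was 0.49, and without control replicate 2 it was 0.25. Each of these fits also left the replicate numbers unequal between the groups. With the replicate number as a block and all libraries kept, the estimate for EGFR was 0.36.

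ERBB2 (ENSG00000141736, chromosome 17 from 39687914 to 39730426, plus strand) had 77.9 and 64.9 CPM in control and 90.7 and 81.5 CPM in knockdown libraries. As for EGFR, replicate 1 was higher in either group, and both knockdown values lay above both control values. Its log2 fold change was 0.27 ± 0.13 (standard error), with an interval from -0.025 to 0.56 (adjusted p = 0.231), and leaving out control replicate 1 or 2 gave 0.41 or 0.14. Exons of MIEN1 and PGAP3 on the other strand covered 6.93% of the exon bases of ERBB2, and reads from these cannot be assigned without knowing the strand setting of the counting.

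ERBB3 (ENSG00000065361, chromosome 12 from 56076799 to 56103505, plus strand) was at the edge of detection. It had 20 and 13 reads in the control libraries and 13 and 8 reads in the knockdown libraries, or 0.835 and 0.570 against 0.613 and 0.397 CPM. The groups overlapped. Its estimate of -0.47 on the log2 scale had an interval from -1.49 to 0.55 (adjusted p = 0.563), which spans 0.357-fold to 1.46-fold.

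Ratios of receptors within a library do not depend on how libraries are scaled. The log2 ratio of ERBB2 to EGFR reads was -2.50 and -2.53 in control and -2.70 and -2.51 in knockdown libraries, with overlapping groups (difference -0.087, exact permutation test, two-sided, p = 0.667). The log2 ratio of ERBB3 to EGFR was -8.90 and -9.15 in control and -9.71 and -9.90 in knockdown libraries, a difference of -0.78 without overlap. The exact p was 0.333, the smallest that 2 against 2 libraries can give, and the ratio rests on 8 to 20 reads of ERBB3 per library.

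AREG (ENSG00000109321, chromosome 4 from 74445136 to 74455005, plus strand), a ligand of EGFR, had the largest positive log2 fold change of the family. It had 53 and 45 reads in the control libraries and 66 and 63 reads in the knockdown libraries, or 2.21 and 1.97 against 3.11 and 3.12 CPM. The knockdown libraries were nearly equal and lay above both control libraries. The estimate was 0.57 ± 0.24 (log2, standard error), with an interval from 0.027 to 1.12, that is 1.02-fold to 2.17-fold (adjusted p = 0.168). Leaving out 1 library at a time gave 0.49 to 0.66. DESeq2 gave 0.56 (adjusted p = 0.445).

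AREG lies in a cluster of EGF family ligand genes on chromosome 4, between EREG (ENSG00000124882, from 74365145 to 74388749, plus strand) and BTC, the gene of betacellulin. EREG ends 56.4 kb before AREG starts, and EPGN, the gene of epigen, ends 48.4 kb before EREG. EREG and EPGN had 0 reads in all 4 libraries. A count of 0 allows up to 3 reads, or between 0.125 and 0.149 CPM depending on the library, and this limit covers counting error only. BTC, not a member, had 34 and 33 reads in control and 44 and 41 reads in knockdown libraries (log2 fold change 0.52 ± 0.28, standard error, adjusted p = 0.275). Of the 4 neighbouring genes, 2 were thus without a read and 2 had few reads, in control and knockdown libraries alike.

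**Figure D3:**
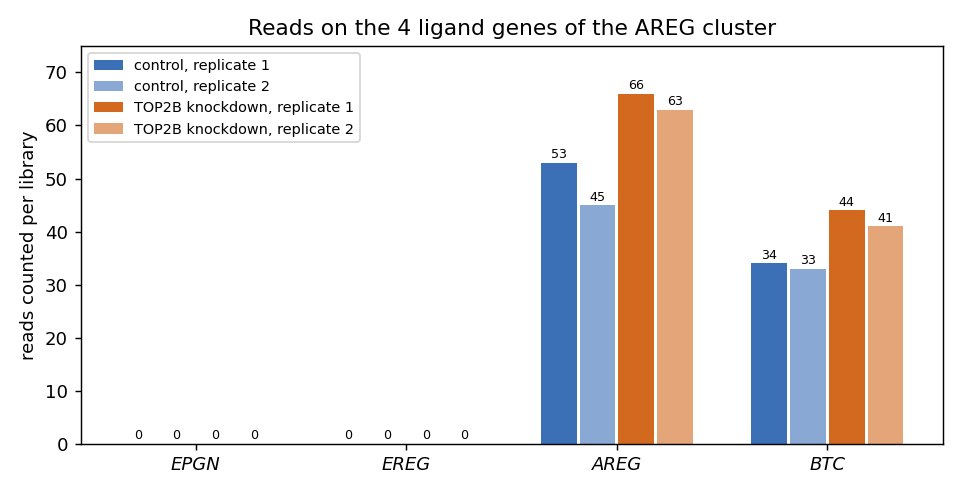
Reads counted in each library on the 4 ligand genes of the chromosome 4 cluster, in their order along the chromosome, not adjusted for library size (control libraries were the larger). EPGN and EREG are at 0 in every library, and AREG and BTC have more reads in both knockdown libraries than in both control libraries.

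HBEGF (ENSG00000113070, chromosome 5 from 140332843 to 140346603, minus strand), a ligand of EGFR and ERBB4 that also binds heparin, had 53.5 CPM in both control libraries. It had 60.3 and 61.3 CPM in the knockdown libraries. The separation was small and the replicates were close. The estimated difference was 0.18 ± 0.11 (log2, standard error), with an interval from -0.068 to 0.44 (adjusted p = 0.341). The test draws its estimate of spread partly from other genes of like level and does not rest on the closeness of these libraries alone.

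TGFA (ENSG00000163235, chromosome 2 from 70447284 to 70554193, minus strand), a ligand of EGFR, differed least between the groups. It had 18.2 and 18.5 CPM in control and 18.4 and 19.3 CPM in knockdown libraries, with overlapping groups. The estimate was 0.04 ± 0.13 (log2, standard error), and its interval from -0.26 to 0.34 spans 0.835-fold to 1.26-fold (adjusted p = 0.893). The log2 ratio of HBEGF to TGFA reads was 1.55 and 1.53 in control and 1.71 and 1.66 in knockdown libraries, a difference of 0.15 without overlap (exact permutation test, two-sided, p = 0.333, the smallest possible).

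NRG1 (ENSG00000157168, from 31639222 to 32855666 on the plus strand of chromosome 8), the ligand of ERBB3 and ERBB4, had 44.3 and 42.2 CPM in control and 55.3 and 50.4 CPM in knockdown libraries. Its replicates differed less than the groups did. The estimated difference was 0.29 ± 0.12 (log2, standard error) with an interval from 0.025 to 0.56 (adjusted p = 0.152), and it ranged from 0.23 to 0.34 when 1 library at a time was left out. Of the receptors that bind it, ERBB3 had the 8 to 20 reads given above. ERBB4 was below the limit for testing, with 4 and 6 reads in control and 19 and 9 reads in knockdown libraries.

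ERRFI1 (ENSG00000116285, chromosome 1 from 8004404 to 8026309, minus strand) encodes a cytoplasmic protein that binds the kinase domain of the receptors and blocks it, and it is itself induced by receptor signalling. It had 72.4 and 75.2 CPM in the control libraries and 85.9 and 94.9 CPM in the knockdown libraries, without overlap. In contrast to EGFR and ERBB2, replicate 2 was the higher in either group. Its log2 fold change was 0.29 ± 0.12 (standard error), the interval ran from 0.029 to 0.56, and the adjusted p was 0.147, the lowest of the 8 genes.

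The 3 tested genes with the word GCAACC, EGFR, NRG1 and ERRFI1, had log2 fold changes of 0.37, 0.29 and 0.29. Of the 5 without it, AREG was above these values at 0.57, and ERBB2 (0.27), HBEGF (0.18), TGFA (0.04) and ERBB3 (-0.47) were below them. The word was looked up because an earlier analysis of these same libraries tied it to higher counts, so these values cannot serve as a test of it. EGFR and NRG1 also had 3′ UTRs longer than the median, as given above. This is a description, and whether the word had a part in these values was not tested.

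The genes around the family were taken from 6 lists written from general knowledge, of 80 genes in all. Of these, 75 were tested, 3 were called higher and 4 lower, and their median log2 fold change was -0.03. These counts are near the 6.66% called higher and 4.18% called lower of all genes tested, so that the called genes are named as single genes and not as a result about the pathway. Of 7 other family genes, 3 were tested and NRG2, a further neuregulin, was called lower. It had 26.8 and 25.7 CPM in control and 16.8 and 15.0 CPM in knockdown libraries (log2 fold change -0.72 ± 0.14, standard error, adjusted p = 0.00965), and the call was kept whichever single library was left out. EGF itself had 98 and 74 reads in control and 67 and 39 reads in knockdown libraries (log2 fold change -0.52, adjusted p = 0.275). NRG3 had no read, and NRG4 had 2 to 5 reads per library. The neuregulins that could be tested therefore differed, with 0.29 for NRG1 (not called) and -0.72 for NRG2 (called), while the difference between them was not tested.

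All 3 called rises were among the 12 genes of ligand release, while 6.66% of all genes tested were called higher. Of the 12 genes, 5 had a positive and 7 a negative log2 fold change. FURIN, a protease that activates precursors of ADAM proteases, had 145.0 and 119.7 CPM in control and 244.1 and 233.2 CPM in knockdown libraries (log2 fold change 0.85 ± 0.14, standard error, adjusted p = 0.00505). RHBDF2, encoding the iRhom2 protein that escorts ADAM17 to the surface, had a log2 fold change of 0.67 (adjusted p = 0.0294), and ADAM15, a membrane protease, one of 0.55 (adjusted p = 0.0297). The call of RHBDF2 was lost without control replicate 2 (adjusted p = 0.173). That of ADAM15 was lost when control replicate 2 (adjusted p = 0.205) or TOP2B knockdown replicate 1 (0.209) was left out, while FURIN was called in each of these fits. The other 9 genes of the list were not called by edgeR, and its median was -0.094. The largest negative value was that of NRDC, encoding nardilysin, which enhances the shedding of HBEGF, with 242.6 and 249.8 CPM in control and 183.1 and 191.5 CPM in knockdown libraries (log2 fold change -0.39, adjusted p = 0.0730). DESeq2 called NRDC lower (adjusted p = 0.0260). ADAM10, which cuts several EGF family ligands, had a log2 fold change of -0.31 (adjusted p = 0.273) with overlapping groups, and of -0.071 without control replicate 1. ADAM17, the main protease of AREG, HBEGF and TGFA, was added after its values were seen, and it had -0.30 (adjusted p = 0.241) with overlapping groups and -0.093 without that library.

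Downstream of the receptors, 0 of 16 tested adaptors and receptor-bound enzymes were called by edgeR, with a median of 0.06. In that list 2 genes had an unadjusted p below 0.05, PLCG1 (log2 fold change 0.49, adjusted p = 0.0583) and GRB2 (log2 fold change -0.34, adjusted p = 0.121), and DESeq2 called PLCG1 (adjusted p = 0.0222). Leaving out 1 library at a time gave PLCG1 adjusted p-values from 0.0353 (without control replicate 1) to 0.392 (without control replicate 2). PIK3R2 was not tested, with 1 to 4 reads per library. Of 15 genes that restrain or internalize receptors, PTPN1, a phosphatase acting on EGFR among other targets, was called lower (log2 fold change -0.70, adjusted p = 0.00984), from 200.9 ± 17.6 to 123.9 ± 9.11 CPM (SD, n = 2). Its adjusted p was 0.0627 without TOP2B knockdown replicate 1. The receptor-degrading LRIG1 had a log2 fold change of -0.38 (adjusted p = 0.145), and 37.9% of its exon bases were shared with SLC25A26 on the other strand. Its value depended on the control libraries, at -0.59 (adjusted p = 0.0280) with control replicate 2 left out and -0.15 (adjusted p = 0.709) with control replicate 1 left out. With control replicate 2 left out, LRIG1, PTPN1 and LRIG3 were called lower, and with TOP2B knockdown replicate 1 left out 0 genes of the list were. HGS, which sorts internalized receptors, had a log2 fold change of 0.33 (adjusted p = 0.108), and 25.9% of its exon bases were shared with other genes. The list's median was -0.12.

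Of 10 genes from RAS to ERK, NRAS was called lower (log2 fold change -0.48, adjusted p = 0.0373), a call lost when control replicate 2 (adjusted p = 0.187) or TOP2B knockdown replicate 1 (0.255) was left out. The kinase gene ARAF had a log2 fold change of 0.37 (adjusted p = 0.0878). Of 19 genes known to respond to ERK, DUSP4, a phosphatase that limits ERK, was called lower (log2 fold change -0.47, adjusted p = 0.0309), from 53.7 ± 0.48 to 38.9 ± 0.96 CPM (SD, n = 2). With any 1 library left out its adjusted p was between 0.0923 and 0.142, while its log2 fold change stayed between -0.49 and -0.46. EGR1, an immediate early gene, had 7 and 43 reads in control and 11 and 93 reads in knockdown libraries, so that replicate 2 was higher in either group by more than the groups differed. Its log2 fold change was 1.24 (adjusted p = 0.401). It ranged from -1.06 without TOP2B knockdown replicate 2 to 3.10 without control replicate 2, fits that left the replicate numbers unequal between the groups. Within either replicate number the knockdown library had more EGR1 reads than the control library. SPRY4, a feedback inhibitor of the pathway, had -0.35 (adjusted p = 0.124). The medians of these lists were -0.07 and 0.11.

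**Figure D4:**
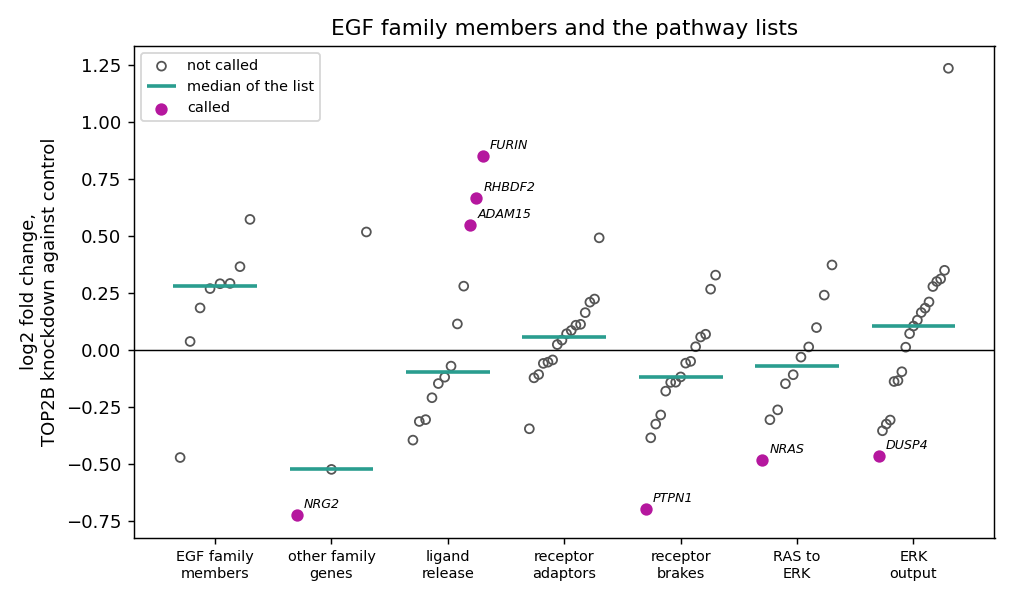
Log2 fold change of each tested gene of the family and of the 6 surrounding lists, with the median of each list (green line) and called genes filled and named. Calls are from the fit with condition as the only term, in which 6.66% of all genes tested were called higher and 4.18% lower. The 3 called rises are in ligand release, the 4 called falls are NRG2, PTPN1, NRAS and DUSP4, and none of the 8 tested family members is called in this fit.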

How the data were processed

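The authors checked reads with FastQC 0.11.6, aligned them to GRCh38 with STAR 2.5.4a and deposited raw counts per gene for Gencode v24, without normalization. Each of the 4 columns stands a second time in the table, value for value the same, and these 4 copies were left out. Column names carry a stranded paired-end tag whereas the methods give single-end 65-bp reads, and whether counting used strand is not given in the sources used here. Testing covered the 15356 of 60725 genes that reached 10 reads in 2 or more libraries, with edgeR 4.0.16 (TMM, glmQLFit and glmQLFTest, condition as the only term, Benjamini-Hochberg) in R 4.3.3, and called at an adjusted p below 0.05. Intervals are 95% and standard errors come from the quasi-likelihood F. Log2 ratios used a prior count of 2. Symbols, exon lengths, positions and 3′ UTRs came from GENCODE v44 (GRCh38), which held 98.9% of the tested genes. All 9 members and every called gene of the lists were named, with the 2 largest uncalled changes of a list at most. Exceptions were ADAM17, added after its values were seen, and LRIG3, named for a fit without 1 library. Members, lists and the word GCAACC were chosen with earlier results of these data known. No gene of like pattern is named, since 4 libraries hold 1 difference only. Alternatives were other scaling (DESeq2 1.42.0 size factors, none), the DESeq2 Wald test, other count filters, a 2-fold threshold, the replicate number as a block, fits without each library, another gene length and a prior count of 0.5. In fits without 1 library the lone library is assumed to vary like the other group, and the replicate numbers are unequal between the groups. Of these steps, only the edgeR test with condition as the only term was tried on simulated counts with changes of known size. Protein sequences were not analysed here.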

Additional observations from a re-analysis of the deposited data

How the results depend on the processing

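Under the other scalings, filters and tests apart from the block, 0 family genes were called and all 38 recomputed log2 fold changes kept their direction (the 2-fold threshold leaves the estimate as it is). The 32 fits without 1 library did so in 31 cases, the exception being TGFA, whose log2 fold change ranged from -0.013 to 0.078. In a fit with the replicate number as a block, 6 of the 8 tested family genes were called higher (EGFR, ERBB2, AREG, HBEGF, NRG1 and ERRFI1), along with 3440 higher and 3346 lower genes over the whole table and 19 higher and 21 lower genes of the surrounding lists. The deviations of same-numbered libraries from their group means had a Pearson's r of 0.48 across the 15356 tested genes (0.68 across the 12193 with a mean log2 CPM above 1). There are only 2 such pairs, and no source says that a number marks a shared culture. The block was therefore not used in the main fit, and whether the libraries are paired was not settled. Against a 2-fold change, 10 genes were called higher and 3 lower, with 0 of the surrounding lists in either direction. With every gene of at least 1 read, 985 genes were lower and 5 genes of the lists higher. Without 1 library, 1 to 4 list genes were called lower, and the 4 without control replicate 2 were NRG2, PTPN1, LRIG1 and LRIG3, in place of NRG2, PTPN1, NRAS and DUSP4. With the length of the longest transcript 1 pair changed order. ERBB3 received no adjusted p from DESeq2, and it and AREG had no value at a mean of at least 100 reads. The ratio of EREG to AREG could not be formed, since EREG had no reads. Read depth limits ERBB3 and EREG most.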
